A study of Mus musculus with 6 samples.

Results

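The low-density lipoprotein (LDL) receptor family was examined in the transcriptome of mouse astrocytes after quinpirole, an agonist of the dopamine D2 receptor (DRD2). In the study, quinpirole was given to the mice before the astrocytes were isolated. The family was represented by 9 genes, *Lrp1*, *Lrp1b*, *Lrp2*, *Lrp4*, *Lrp5*, *Lrp6*, *Lrp8*, *Lrp10* and *Vldlr*, and all 9 had a row among the 17193 Ensembl gene identifiers of the deposited tables. They were chosen by name, because *Lrp1* had about 50% of its Mock level in the Quinpirole libraries and the question was whether its relatives followed. The values of *Lrp1* in this contrast are therefore given as a description, without a test. The study sequenced mRNA of astrocytes from the brains of wild-type C57BL/6 mice aged 3 months, isolated with magnetic microbeads against the astrocyte surface antigen ACSA-2. There were 3 libraries labelled Mock and 3 labelled Quinpirole, all of the same strain, genotype, tissue and age. The dose and the duration of the treatment for these libraries, and whether a library came from 1 mouse or from pooled mice, are not given in the sources used here. The p-values measure only the spread between these libraries.

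Receptors of this family are single-pass membrane proteins that carry cysteine-rich ligand-binding repeats, and most but not all of them also carry propeller domains. The large members, LRP1 and LRP2, are endocytic receptors that take up apolipoprotein E particles, protease–inhibitor complexes and matrix proteins. LRP5 and LRP6 act with Frizzled proteins as coreceptors for Wnt, LRP4 binds agrin and also restrains Wnt signaling, and LRP8 (also called ApoER2) and VLDLR are the receptors for reelin. In the brain, astrocytes make most of the apolipoprotein E that these receptors bind.

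The values are FPKM, fragments per kilobase of transcript scaled to the mapped fragments of the library, so levels can be compared between genes. The libraries held an estimated 22300000 to 27400000 fragments, read from the step size of low values. The markers of astrocytes were all measured, with a summed FPKM of 1483 to 1645 in the Mock libraries and 1472 to 1502 in the Quinpirole libraries. Of the 9 astrocyte markers 2 fell, *Slc1a2* (-0.42, adjusted p = 0.0297 from limma) and *Atp1b2* (-0.19, adjusted p = 0.0382). Of the neuronal markers, *Snap25* and *Rbfox3* were below 0.1 FPKM in every library, while *Stmn2* had 53.3 to 67.2 FPKM and rose (0.22, adjusted p = 0.0322) and *Tubb3* had 16.6 to 22.3 FPKM. The endothelial marker *Pecam1* was below 0.1 FPKM and *Slco1a4* had 44.4 to 47.6 FPKM. *Acta2* and *Tagln*, contractile genes fixed as mural markers, were above 2228 FPKM in every library, and *Foxj1*, a gene of ciliated ependymal cells, lay between 118 and 130 FPKM. The summed markers of neurons (70.8 to 76.2 and 82.7 to 89.3 FPKM in Mock and Quinpirole), oligodendrocyte precursors (307 to 316 and 329 to 352), mural cells (4795 to 5128 and 5147 to 5507) and fibroblasts (113 to 128 and 89.7 to 101) did not overlap between the groups. These sums rest on few genes, and single markers differed in direction. *Myh11* and *Rgs5*, also fixed as mural markers, had highest values of 0.810 and 0.420 FPKM. The highest value was 0.716 FPKM for the precursor marker *Pdgfra* and 0.164 FPKM for the fibroblast marker *Lum*. The markers of microglia summed to 301 to 313 FPKM in the Mock libraries and 308 to 317 FPKM in the Quinpirole libraries. *Acta2* and *Tagln* had an adjusted p of 0.171 and 0.199 from limma, while the mural marker *Pdgfrb* fell (-0.30, adjusted p = 0.0227). *Olig1* rose (0.15, adjusted p = 0.0490) and *Cspg4* had -0.19 (adjusted p = 0.267). *Col1a1* fell (-0.34, adjusted p = 0.0298) and *Dcn* had 0.20 (adjusted p = 0.274). The part of these markers in the results was not tested. In bulk libraries, fewer cells of a type and less RNA per cell cannot be told apart. The 12255 genes whose mean reached 1 FPKM were tested with limma after log2(FPKM + 1) transformation, a scale that understates the change of weakly expressed genes. With a Benjamini-Hochberg adjusted p under 0.05 as the threshold, 704 genes were higher and 635 were lower after quinpirole, and with quantile normalization 283 and 500. Without it, 10.9% of the tested genes were past the threshold in either direction, 5.18% in the lower and 5.74% in the higher direction. The Quinpirole libraries lay entirely below the Mock libraries for 16.9% of the tested genes and did not overlap with them in either direction for 36.9%.

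In the Mock libraries *Lrp1* had the highest level of the family, 109 ± 13.0 FPKM (SD, n = 3), followed by *Lrp10* at 65.6 ± 1.39 FPKM and *Lrp2* at 39.7 ± 4.98 FPKM. *Lrp5*, *Lrp4*, *Lrp6* and *Lrp8* followed with means between 13.97 and 17.3 FPKM, and each overlapped with its neighbor in this order. *Vldlr* had a mean of 2.41 FPKM and *Lrp1b* of 0.136 FPKM. After quinpirole the order at the top was reversed, with *Lrp10* at 65.2 ± 1.74 FPKM above *Lrp1* at 54.4 ± 6.42 FPKM, and the libraries of these genes did not overlap in either group. *Lrp1* made up 37.2% to 40.4% of the summed FPKM of the 9 genes in the Mock libraries and 25.7% to 28.5% in the Quinpirole libraries. *Lrp10* made up 21.9% to 26.0% and 31.5% to 35.4%, respectively.

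**Figure D1:**
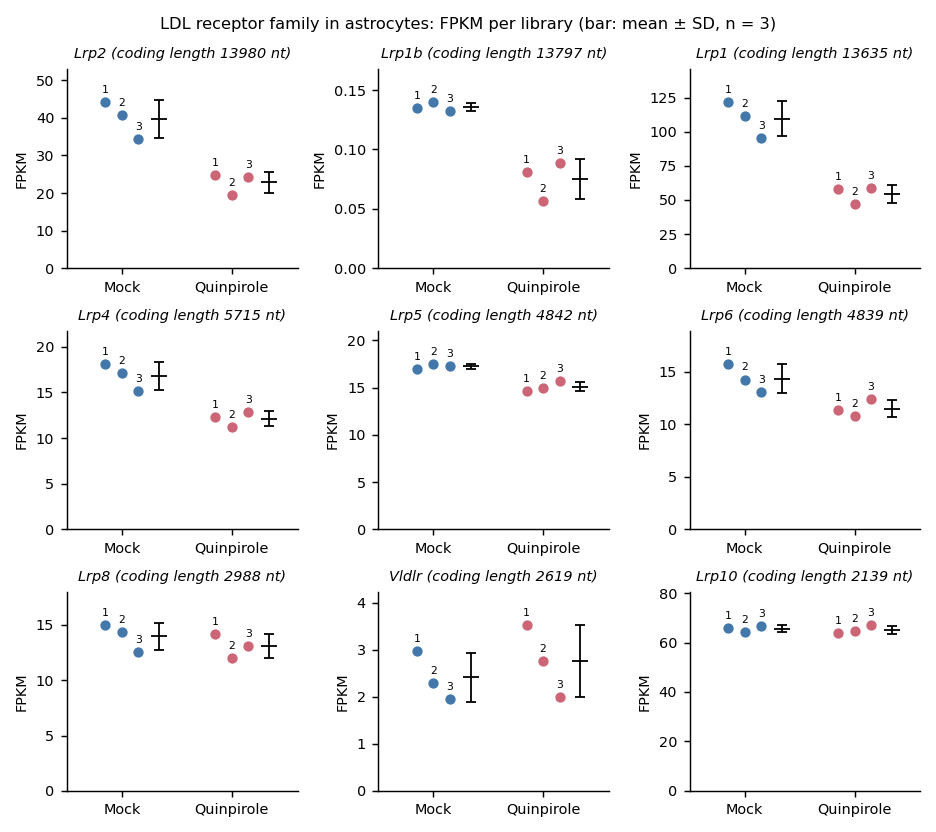
Each panel plots the FPKM of 1 gene, on an axis that starts at 0, in the 3 Mock libraries (blue) and the 3 Quinpirole libraries (red), numbered by replicate, with the mean and SD (n = 3) as a black bar. Panels run from the longest to the shortest coding sequence, and the groups are apart in the first 6 panels and overlap for *Lrp8*, *Vldlr* and *Lrp10*.

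*Lrp1* (ENSMUSG00000040249, GRCm38 chromosome 10, 127538161 to 127621148, minus strand) has 89 exons in its longest coding transcript. Its FPKM was 121, 111 and 95.6 in the Mock libraries (1 to 3) and 57.6, 47.0 and 58.6 in the Quinpirole libraries. Every Quinpirole library lay below every Mock library, with a gap of 37.1 FPKM between the groups. The mean after quinpirole was 0.497 of the Mock mean, and the difference on the log2 scale was -0.995 (standard error 0.11). An estimated 36166 to 48061 fragments in a Mock library and 18195 to 22734 in a Quinpirole library lay behind these values, so counting error was small.

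*Lrp2* (ENSMUSG00000027070, chromosome 2, 69424340 to 69586065, minus strand), also called megalin and known as the endocytic receptor of absorptive epithelia, followed *Lrp1*. Its FPKM was 44.1, 40.7 and 34.3 in the Mock libraries (1 to 3) and 24.7, 19.5 and 24.3 in the Quinpirole libraries. The groups did not overlap. *Lrp2* fell by 0.77 on the log2 scale (standard error 0.11, adjusted p = 0.0225 from limma), to 0.575 of its Mock mean. Markers of ependyma and choroid plexus, epithelia in which *Lrp2* is known to be expressed, had summed FPKM values of 138 to 151 and 28.5 to 29.97 in the Mock libraries. In the Quinpirole libraries the sums were 139 to 147 and 29.4 to 31.4, and 0 of the 6 tested markers passed the threshold in either direction. The sums are mostly *Foxj1* and *Folr1* (24.2 to 27.9 FPKM), and the other choroid plexus markers had 3.24 FPKM or less. Whether the share of these epithelia changed was not tested.

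*Lrp1b* (ENSMUSG00000049252, chromosome 2, 40595246 to 42653624, minus strand), the closest relative of *Lrp1*, was near the detection limit and below the filter of 1 FPKM. Its FPKM was 0.135, 0.140 and 0.132 in the Mock libraries and 0.0808, 0.0565 and 0.0883 in the Quinpirole libraries, which stand for an estimated 54.8 to 62.3 and 23.9 to 34.9 fragments. The Quinpirole libraries lay below the Mock libraries, at 0.554 of the Mock mean. An exact permutation test of this difference (two-sided) gave p = 0.1, the lowest value possible with groups of 3. With all 17193 genes tested and a pseudocount of 0.1, which was added once the values were known, limma gave a log2 fold change of -0.43 (95% interval -0.77 to -0.10) and an adjusted p of 0.118, and the adjusted p under the alternatives that include this gene lay between 0.0945 and 0.118.

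The stretches of 250 bases before the annotated start are shown for *Lrp1* and *Lrp2*, which were both lower in every Quinpirole library, and for *Lrp10*, whose libraries overlapped. Sequences are from RefSeq on GRCm38.p6, 5′ to 3′ on the strand of the gene, at chr10:127621149-127621398 (minus strand), chr2:69586030-69586279 (minus strand) and chr14:54463897-54464146 (plus strand). The table used here held an entry for 5 of the 9 genes. Capitals mark matches on either strand to a GC box (GGGCGG) or to the core of the antioxidant response element bound by Nrf2 (TGACNNNGC).
Lrp1: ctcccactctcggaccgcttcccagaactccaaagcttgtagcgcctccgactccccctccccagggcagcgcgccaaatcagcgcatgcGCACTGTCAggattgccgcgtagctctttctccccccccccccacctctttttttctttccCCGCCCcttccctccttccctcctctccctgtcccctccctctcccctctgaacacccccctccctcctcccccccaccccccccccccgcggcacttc
Lrp2: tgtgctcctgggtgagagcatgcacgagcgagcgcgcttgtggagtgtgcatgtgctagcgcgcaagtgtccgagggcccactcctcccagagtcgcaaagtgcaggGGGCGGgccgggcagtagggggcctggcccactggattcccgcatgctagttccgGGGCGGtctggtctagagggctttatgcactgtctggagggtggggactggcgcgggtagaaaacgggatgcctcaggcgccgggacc
Lrp10: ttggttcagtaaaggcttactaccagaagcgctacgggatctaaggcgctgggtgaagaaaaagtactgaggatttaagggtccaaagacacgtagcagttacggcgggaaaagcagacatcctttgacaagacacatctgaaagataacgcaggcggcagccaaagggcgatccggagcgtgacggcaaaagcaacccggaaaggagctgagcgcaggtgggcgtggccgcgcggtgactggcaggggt
The *Lrp1* stretch held 1 GC box and 1 antioxidant core, the *Lrp2* stretch held 2 GC boxes and 0 antioxidant cores, and the *Lrp10* stretch held 0 of either. Among the entries not shown, 1 of 3 for *Lrp8* held an antioxidant core and 1 of 2 for *Vldlr* held a GC box. Of 32851 such stretches of all genes, 32.7% held a GC box and 10.2% an antioxidant core. A match of letters is a description and not a binding site.

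*Lrp4* (ENSMUSG00000027253, chromosome 2, 91457511 to 91513779, plus strand), the agrin receptor, had 18.1, 17.1 and 15.2 FPKM in the Mock libraries and 12.3, 11.2 and 12.9 FPKM in the Quinpirole libraries. The groups were apart by 2.31 FPKM. *Lrp4* fell by 0.44 on the log2 scale (standard error 0.08, adjusted p = 0.0251 from limma). Its ligand gene *Agrn* fell as well, from 87.0 ± 4.77 to 67.9 ± 3.55 FPKM (SD, n = 3), by 0.35 on the log2 scale with an adjusted p of 0.0236 from limma. Of the 3 tested genes of the agrin pathway, *Agrn* was the single gene past the threshold.

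The Wnt coreceptors *Lrp5* and *Lrp6* were lower after quinpirole by smaller amounts. *Lrp5* (ENSMUSG00000024913, chromosome 19, 3584828 to 3686564, minus strand) had 17.0, 17.5 and 17.3 FPKM in the Mock libraries and 14.7, 15.0 and 15.7 FPKM in the Quinpirole libraries. It fell by 0.18 on the log2 scale (standard error 0.04, adjusted p = 0.0451 from limma), the smallest change of the 3 relatives past the threshold. *Lrp6* (ENSMUSG00000030201, chromosome 6, 134446476 to 134566965, minus strand) had 15.8, 14.3 and 13.1 FPKM in the Mock libraries and 11.3, 10.8 and 12.4 FPKM in the Quinpirole libraries. The groups were apart by 0.686 FPKM. The log2 fold change of *Lrp6* was -0.30 (standard error 0.08), and its adjusted p of 0.0522 from limma missed the threshold.

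The reelin receptors overlapped between the groups. *Lrp8* (ENSMUSG00000028613, chromosome 4, 107802261 to 107876840, plus strand) had 15.0, 14.3 and 12.6 FPKM in the Mock libraries and 14.2, 11.99 and 13.1 FPKM in the Quinpirole libraries. Its log2 fold change was -0.09, with a 95% interval from -0.28 to 0.10 (adjusted p = 0.497 from limma). *Vldlr* (ENSMUSG00000024924, chromosome 19, 27216484 to 27254231, plus strand) had 2.98, 2.29 and 1.95 FPKM in the Mock libraries and 3.52, 2.76 and 1.99 FPKM in the Quinpirole libraries. Its log2 fold change was 0.13, with an interval from -0.26 to 0.52 (adjusted p = 0.629 from limma).

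*Lrp10* (ENSMUSG00000022175, chromosome 14, 54464137 to 54471497, plus strand), a small member known to cycle between the Golgi and endosomes, was the steadiest. It had 65.9, 64.1 and 66.8 FPKM in the Mock libraries and 63.7, 64.7 and 67.1 FPKM in the Quinpirole libraries. The log2 fold change was -0.01, with an interval from -0.10 to 0.08 (adjusted p = 0.883 from limma). An antisense gene, *Gm10366*, overlaps 10.6% of the exonic length of *Lrp10*, and the library kit used does not mark strand, so reads of these genes cannot be told apart. For the other members, at most 0.320% of the longest coding transcript also occurred in transcripts of other genes.

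Of the 7 tested relatives of *Lrp1*, 3 fell (*Lrp2*, *Lrp4* and *Lrp5*) and 0 rose, beside the 5.18% of all tested genes that fell. The share of genes that fell was larger for longer coding sequences. With 2000 to 3000 coding nucleotides, where *Lrp8*, *Lrp10* and *Vldlr* lie, 107 of 1970 tested genes fell. With 4000 to 6000, where *Lrp4*, *Lrp5* and *Lrp6* lie, 144 of 576 fell, and with at least 10000, where *Lrp2* lies, 39 of 55. The Quinpirole libraries lay below every Mock library for 5 of the 8 relatives. Of these, *Lrp2*, *Lrp4*, *Lrp5* and *Lrp6* were tested, beside 16.9% of all tested genes with such a separation. *Lrp1b* was under the filter and does not belong to that comparison. The number of relatives past the threshold was 0 without Mock 1, without Mock 2, without Quinpirole 1 or without Quinpirole 2, 1 (*Lrp2*) without Quinpirole 3 and 3 without Mock 3, where *Lrp2*, *Lrp4* and *Lrp6* were past it and *Lrp5* was not. *Lrp5* was lost in every omission, while the log2 fold changes of *Lrp2*, *Lrp4*, *Lrp5* and *Lrp6* were negative in every one of these fits.

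**Figure D2:**
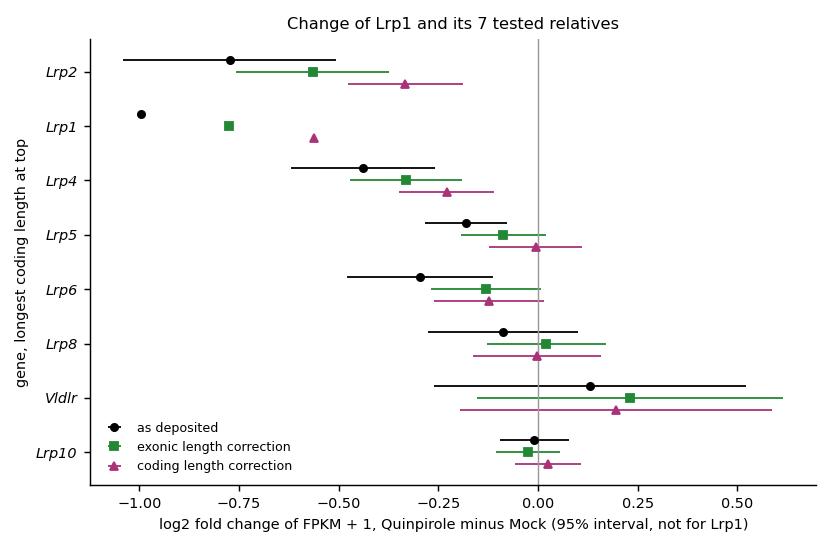
Points are log2 fold changes of FPKM + 1, Quinpirole minus Mock, with 95% intervals from limma (3 against 3 libraries) for the 7 tested relatives and without an interval for *Lrp1*, ordered by coding length. Black circles are the values as deposited, green squares those after correction for exonic length and purple triangles those after correction for coding length, and *Lrp1* moves from -0.995 to -0.78 and -0.56.

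The size of the change followed the length of the coding sequence within the family. The coding length, taken from the longest coding transcript in GENCODE M21, was 13980 nucleotides for *Lrp2*, 13797 for *Lrp1b* and 13635 for *Lrp1*. It was 5715 for *Lrp4*, 4842 for *Lrp5* and 4839 for *Lrp6*, and 2988 for *Lrp8*, 2619 for *Vldlr* and 2139 for *Lrp10*. Across the 7 tested relatives, without *Lrp1*, Spearman's coefficient between coding length and log2 fold change was -0.929, and with the whole transcript length it was -0.536, a description over genes that share the same 6 libraries. *Vldlr* has a transcript of 7971 nucleotides, of which 5352 lie outside the coding part, and did not pass the threshold, whereas *Lrp4*, with 7926 nucleotides and 2211 outside the coding part, fell.

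The same relation was present across all genes. Over the 12142 tested genes with a coding length, Spearman's coefficient was -0.527 with coding length and -0.535 with the whole transcript length. These genes do not count as independent observations. The stronger relation with coding length than with transcript length within the family was thus not seen over all genes. The median log2 fold change was 0.11 for genes with a coding length under 1000 nucleotides, -0.04 between 2000 and 3000, where *Lrp8*, *Lrp10* and *Vldlr* lie, and -0.16 between 4000 and 6000, where *Lrp4*, *Lrp5* and *Lrp6* lie. For the 55 genes with a coding length of at least 10000, a boundary chosen after the data had been seen, it was -0.48. Of these 55 genes, 54 had a log2 fold change below 0, 70.9% fell past the threshold and 87.3% had Quinpirole libraries entirely below the Mock libraries. *Lrp1* held place 2 and *Lrp2* place 7 of the 55 in the size of the decrease. The genes at places 1, 3 and 4 were *Macf1*, a spectraplakin of the cytoskeleton, *Hspg2*, the matrix proteoglycan perlecan, and *Fat1*, a giant cadherin, with log2 fold changes of -1.003, -0.93 and -0.82. Long genes of other families thus had decreases of similar size.

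**Figure D3:**
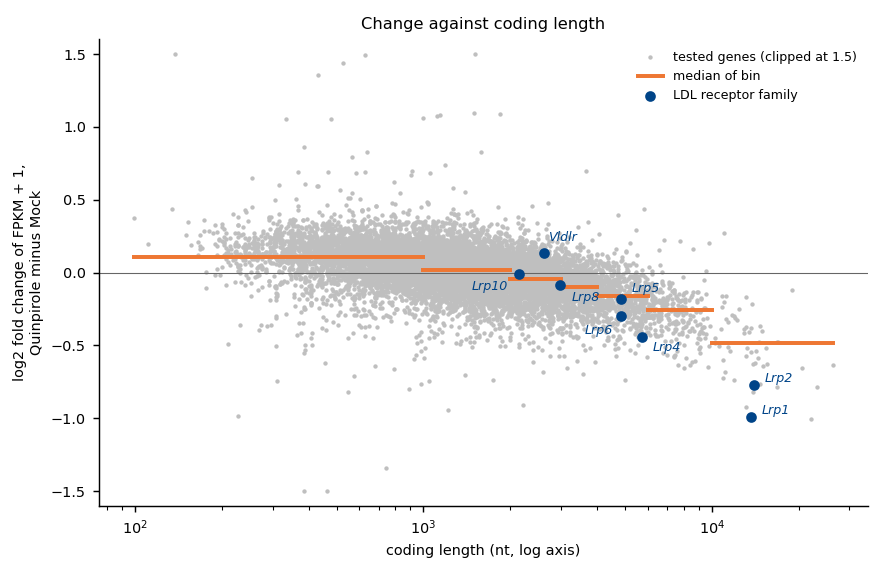
Each gray point is a tested gene, with the coding length on a log axis and the log2 fold change of FPKM + 1 (Quinpirole minus Mock, drawn at 1.5 where larger) on the other, and orange lines are the medians of 7 bins of coding length. The family members (blue) run from 0.13 for *Vldlr* and near 0 for *Lrp10* to -0.995 for *Lrp1*, while the bin medians run from 0.11 to -0.48.

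The relation was also seen library by library. For the genes with a coding length of at least 10000, the median distance of a library from the 6-library average, on the log2(FPKM + 1) scale, was 0.31, 0.27 and 0.13 in the Mock libraries, numbered 1 to 3, against -0.18, -0.37 and -0.16 in the Quinpirole libraries. *Lrp1* deviated by 0.65, 0.53 and 0.31 and by -0.41, -0.70 and -0.39 in the same libraries. Mock 1 was the highest Mock library for 6 of the 9 members and Mock 3 the lowest for 7, and Quinpirole 2 was the lowest Quinpirole library for 6. What made long genes lower was not tested.

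After each library had been corrected for exonic length, 4.24% of the tested genes passed the threshold, 2.04% in the lower direction, and *Lrp2* (-0.57, adjusted p = 0.0314 from limma) and *Lrp4* (-0.33, adjusted p = 0.0385) were among them. *Lrp5* (-0.09) and *Lrp6* (-0.13) were not. After correction for coding length, a setting added after the data had been seen, 0.335% of the genes passed, 0.245% in the lower direction, and 0 of the 7 relatives did. The log2 fold change was then -0.56 for *Lrp1*, -0.33 for *Lrp2* (adjusted p = 0.0556 from limma), -0.23 for *Lrp4* (adjusted p = 0.0694), -0.12 for *Lrp6* (adjusted p = 0.260) and -0.01 for *Lrp5* (adjusted p = 0.952). Over all alternatives, the adjusted p ranged from 0.0183 to 0.126 for *Lrp2*, from 0.0190 to 0.126 for *Lrp4*, from 0.0367 to 0.952 for *Lrp5* and from 0.0413 to 0.313 for *Lrp6*. A true change that goes with length would be removed by such a correction as well.

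Relatives outside the 9 genes were followed as a list of 7 genes, all tested. *Sorl1*, a sorting receptor for the amyloid precursor protein with a coding length of 6645 nucleotides, had 33.3, 33.9 and 31.6 FPKM in the Mock libraries and 25.7, 23.0 and 25.8 FPKM in the Quinpirole libraries, and fell by 0.39 on the log2 scale (limma, adjusted p = 0.0225). It was the single gene of the 7 past the threshold, and it was not past it after correction for coding length (-0.15, adjusted p = 0.0788 from limma). The other genes of the list did not pass the threshold. The median of the list was -0.05, against 0.02 for all tested genes.

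Ligands of LRP1 and the VLDL receptor moved in both directions. Of 24 tested genes, 2 rose and 3 fell, beside 5.74% and 5.18% of all tested genes, with a median log2 fold change of -0.02. *Hspg2* (perlecan) had the largest decrease, from 43.4 ± 5.88 to 22.4 ± 2.95 FPKM (log2 fold change -0.93, adjusted p = 0.0225 from limma). The protease inhibitor *A2m*, a ligand cleared by LRP1, fell from 276 ± 10.3 to 236 ± 5.04 FPKM (-0.22, adjusted p = 0.0251). The growth factor gene *Ptn* rose from 46.5 ± 1.37 to 53.1 ± 1.63 FPKM (0.19, adjusted p = 0.0364). *Apoe* was the most abundant ligand gene, with 2439 to 2824 FPKM in the Mock libraries and 2516 to 2661 FPKM in the Quinpirole libraries, and had a log2 fold change of 0.01 (95% interval -0.14 to 0.16, adjusted p = 0.904 from limma).

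The genes that fold, anchor and cut the receptors showed few calls. None of the 19 tested chaperones and adaptors passed the threshold in limma, beside 10.9% of all tested genes. An unadjusted p under 0.05 from limma was reached by 5 of the 19, beside 3839 of all 12255 tested genes. *Lrpap1*, the chaperone RAP that escorts LRP1 through the secretory pathway, had 63.9, 64.1 and 66.2 FPKM in the Mock libraries and 65.4, 69.7 and 64.5 FPKM in the Quinpirole libraries (log2 fold change 0.04, 95% interval -0.06 to 0.13, adjusted p = 0.564 from limma). Of the 16 tested shedding enzymes and their inhibitors, 2 rose, beside 5.74% of all tested genes. These were *Timp1*, an inhibitor of metalloproteinases, from 16.0 ± 1.00 to 21.8 ± 1.36 FPKM (0.43, adjusted p = 0.0225), and the γ-secretase subunit gene *Psenen*, from 89.7 ± 4.52 to 102 ± 2.56 FPKM (0.18, adjusted p = 0.0480).

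In the reelin pathway 1 of 16 tested genes fell, beside 5.18% of all tested genes. It was *Pik3r1*, the regulatory subunit of phosphoinositide 3-kinase (-0.28, adjusted p = 0.0454 from limma). *Dab1*, the adaptor of the reelin receptors, was at 8.38 ± 0.274 and 7.74 ± 0.728 FPKM (-0.11, adjusted p = 0.347), and *Reln* itself was at 0.285 FPKM or less in every library, below the filter. In the Wnt pathway 7 of 51 tested genes fell and 0 rose, beside 5.18% and 5.74% of all tested genes, with a median log2 fold change of -0.03. Those with the smallest p were the transcriptional coactivator gene *Bcl9* (-0.39, adjusted p = 0.0225), the Dishevelled gene *Dvl3* (-0.25, adjusted p = 0.0225), the repressor gene *Tcf7l1* (-0.32, adjusted p = 0.0236) and *Apc2* (-0.51, adjusted p = 0.0236). *Axin2*, a target of Wnt signaling, was at 17.6 and 16.8 FPKM (-0.06, 95% interval -0.20 to 0.08, adjusted p = 0.526), and *Ctnnb1*, which encodes β-catenin, at 303 and 299 FPKM (-0.02, interval -0.10 to 0.06, adjusted p = 0.737). Over all lists together, 13 of 136 tested genes fell and 4 rose, beside 5.18% and 5.74% of all tested genes. The total was near the 10.9% of all tested genes past the threshold in either direction. The share that fell was larger, and the share that rose smaller, than over all genes. After correction for coding length 1 was past the threshold, *Hspg2* (-0.50, adjusted p = 0.0492 from limma). Without Mock 1, Mock 2, Quinpirole 1 or Quinpirole 2 the number was 0, and without Quinpirole 3 it was 5.

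**Figure D4:**
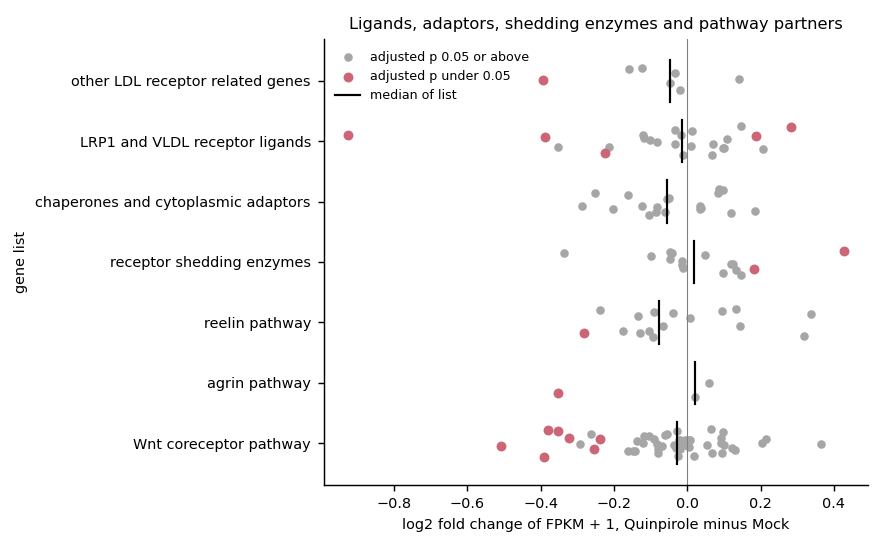
Each point is the log2 fold change of FPKM + 1 (Quinpirole minus Mock) of 1 tested gene, set by list, with genes past the adjusted p of 0.05 from limma in red, the others in gray and the median of each list as a black line. The medians lie between -0.08 and 0.02, and red points lie to the left of 0 except for 2 of 5 among the ligands and both among the shedding enzymes.

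Over the 6 libraries, the genes outside the family whose log2(FPKM + 1) was most like that of *Lrp1* were *Dnmt3a* (Pearson's r = 0.999), *Cdc42bpb* (0.999), *Ankrd10* (0.999), *Srrm2* (0.999) and *Peg3* (0.998). These correlations mainly carry the difference between the groups, and 621 of 12254 genes had an r of at least 0.95. Within the family, r with *Lrp1* was 0.995 for *Lrp2*, 0.991 for *Lrp4*, 0.949 for *Lrp6* and 0.921 for *Lrp5*. It was 0.630 for *Lrp8*, 0.148 for *Lrp10* and -0.198 for *Vldlr*.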

How the data were processed

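Gene expression was measured in 6 libraries, 3 labelled Mock and 3 labelled Quinpirole. The authors isolated astrocytes with anti-ACSA-2 microbeads, removed adaptors and low-quality reads, used TopHat2 for mapping, retained alignments with at most 1 mismatch, and deposited their expression estimates as FPKM. GRCm38 is the build in the submitters' processing notes. The program that computed FPKM is not given in the sources used here.

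Of 17193 identifiers, 17090 were matched to a symbol, and lengths and positions were taken from GENCODE M21 (GRCm38). Tests used limma 3.58.1 in R 4.3.3 (eBayes with trend, two-sided, Benjamini-Hochberg over 12255 genes). Loess corrections (span 0.3) subtracted each library's trend of deviations on log2 exonic length, GC content or log2 coding length. Depth was estimated from 1254 genes with 1 transcript, and 65.5% to 76.0% of the low values were whole to within 0.1 fragments, against 20% by chance. Over 680 well-measured genes, the median chi-square of replicate pairs was 2.37 to 3.83 times the chance value, so no replicates agreed within sampling noise. The scripts were tested on simulated data. The labels name no batch. The family, the gene lists and the tests were chosen with earlier results of these data known. From each list the text names up to 4 genes past the threshold with the smallest p, and a few genes that are always given, of which some are not reported here. *Macf1* and *Fat1* were named after their values were seen. Alternatives were another pseudocount, other filters, scalings and variance models, a replicate block and the omission of each library. Tables and plots were made in Python 3.11.15 with pandas 2.3.3, scipy 1.17.1 (exact tests) and matplotlib 3.10.9.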

Additional observations from a re-analysis of the deposited data

How the results depend on the processing

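Against 1339 genes past the threshold, 633 were past it with no filter on low values, 714 with no filter and a pseudocount of 0.1, 783 with quantile normalization, 714 with eBayes without trend (293 higher, 421 lower), 519 with the exonic length correction (the length correction), 399 with the length and GC corrections, 41 with the coding length correction (11 higher, 30 lower) and 38 with a minimum change of 1.5 times (7 higher, 31 lower). Leaving out single libraries gave 3 to 1215 genes, with the lowest number without Mock 2 and the highest without Mock 3. Of the relatives of *Lrp1*, 3 as designed, 0 were past the threshold with the coding length correction, 1 with the minimum change, and 0 to 3 without single libraries. Of the pathway genes, 17 as designed, 10 were past it with the length and GC corrections, 1 with the coding length correction, 1 with the minimum change and 0 to 18 without single libraries. With the replicate block, 2 genes, 0 relatives and 0 pathway genes were past it, and with the replicate block and the length correction together 0 of each, while at an unadjusted p under 0.05 there were 3308 and 2734. Same-numbered libraries are different samples whose deviations correlated at 0.03, -0.07 and -0.10, while those of the other pairs ran from -0.10 to 0.15. Deviations from means of 3 libraries cannot show whether the numbers pair the libraries. The log2 fold change of *Lrp1* was -0.78 with the length correction and with the replicate block and length correction, -0.73 with the length and GC corrections, -0.56 with the coding length correction and -1.09 to -0.90 without single libraries. The sign of *Lrp8* changed with the length correction (0.021), with block and length correction (0.021) and with the length and GC corrections (0.072). That of *Lrp10* changed with the GC (0.0072), length and GC (0.024) and coding length (0.025) corrections. Without single libraries *Lrp10* ranged from -0.030 to 0.0065 and *Vldlr* from -0.013 to 0.29. Of 139 values for the 7 other tested relatives, 96 kept their direction and side of the threshold, 30 lost and 4 gained the threshold and 9 changed sign. The cause was not tested. FPKM hold no counts, so no count test was run, and depth limits *Lrp1b* most.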

Other observations

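The ratio of the FPKM of *Lrp1* to that of *Lrp2*, receptors of nearly equal coding length, was 2.75, 2.73 and 2.79 in the Mock libraries and 2.34, 2.41 and 2.41 in the Quinpirole libraries. The ratios did not overlap between the groups. Because *Lrp1* was chosen for its fall in this contrast, the choice itself favored lower ratios with *Lrp1*, and they are a description only. The ratio of *Lrp1* to *Lrp10*, the steadiest member, was 1.84, 1.74 and 1.43 in the Mock libraries and 0.904, 0.726 and 0.873 in the Quinpirole libraries. For the Wnt coreceptors, the ratio of *Lrp6* to *Lrp5*, which have almost the same coding length, was 0.929, 0.814 and 0.755 in the Mock libraries and 0.770, 0.720 and 0.789 in the Quinpirole libraries, and the groups overlapped. These ratios were not tested.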
